A study of Mus musculus with 9 samples.

Results

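The miR-148/miR-152 family comprises miR-148a-3p, miR-148b-3p and miR-152-3p, 3 microRNAs (miRNAs) made from separate hairpin genes that share 1 seed. The members were taken by name from a table of 1129 miRNA rows measured by small-RNA sequencing of mouse back skin, and all 3 were among the 447 rows that passed a filter on low counts. The 9 libraries came from adult female C57BL/6 mice, an inbred laboratory strain, aged 6 months and wounded on the back with a punch of 8 mm, and they fall into 3 groups of 3. The day 0 group is the skin removed by the punch, the day 7 group is skin from the wound edge 7 days later, and the diabetic group is skin of a diabetic mouse model wounded in the same way. The sources used here do not say how diabetes was induced. The labels disagree on when the diabetic skin was taken, since titles carry T7, the table's columns carry T0 and the treatment text describes skin removed at wounding. Diabetes and time can therefore not be told apart in that group's comparison with either of the others. Whether a mouse gave skin to both the day 0 and the day 7 group is not stated for the 9 mice, so the tests reflect only how these libraries vary.

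A miRNA guides an Argonaute protein to messenger RNAs that pair with its seed, bases 2 to 8 from the 5′ end, and lowers their stability and translation. Members of a family share the seed and so can pair with the same sites. The miR-148/miR-152 family is known for repressing Dnmt1, the maintenance DNA methyltransferase. In wounded skin, miR-148b has been studied in blood vessel cells.

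The mature sequences show what makes the 3 rows a family and how few bases tell their reads apart. They are given as RefSeq lists them for GRCm38.p6, 5′ to 3′, with the seed in capitals; the prefix mmu, for mouse, is left out elsewhere.
mmu-miR-148a-3p: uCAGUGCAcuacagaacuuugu
mmu-miR-148b-3p: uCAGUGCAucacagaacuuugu
mmu-miR-152-3p: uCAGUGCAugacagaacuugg
Counting from 1 at the 5′ end, miR-148b-3p differs from miR-148a-3p by C9U and U10C, so that 20 of 22 bases are the same. miR-152-3p differs from miR-148a-3p by C9U, U10G and U20G, and from miR-148b-3p by C10G and U20G. In a search of the RefSeq table of 1679 mature mouse miRNAs, the 3 members were found to carry the seed CAGUGCA. The search left out hits on 1 chromosome, so whether any other miRNA carries it was not settled.

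The hairpins, shown with the 3p arm in capitals because the abundance of the arms is compared below, differ more than their 3p arms do.
Mir148a: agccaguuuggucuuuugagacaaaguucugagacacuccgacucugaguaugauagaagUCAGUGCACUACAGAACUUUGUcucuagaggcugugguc
Mir148b: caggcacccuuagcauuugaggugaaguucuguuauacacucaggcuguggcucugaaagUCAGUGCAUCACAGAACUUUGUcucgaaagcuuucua
Mir152: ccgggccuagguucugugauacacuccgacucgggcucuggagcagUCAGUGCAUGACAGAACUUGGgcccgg
The opposite arms are released from the other side of the same hairpins, and here the part in capitals is again bases 2 to 8.
miR-148a-5p: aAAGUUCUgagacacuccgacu
miR-148b-5p: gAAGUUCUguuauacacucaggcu
miR-152-5p: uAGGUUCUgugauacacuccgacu
The 5p arms of miR-148a and miR-148b are the same at 13 of 22 positions, those of miR-148a and miR-152 at 12 of 22, and those of miR-148b and miR-152 at 19 of 24.

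In GRCm38, miR-148a-3p is read from the minus strand at chr6:51269829-51269850, and Mir148a lies in no annotated gene, with the nearest coding gene, Nfe2l3, 162760 bp away. miR-148b-3p is read from the plus strand at chr15:103285185-103285206, in an intron of Copz1 on the same strand. miR-152-3p is read from the plus strand at chr11:96850439-96850459, in an intron of Copz2 on the same strand. Copz1 and Copz2 are paralogs that encode the zeta subunits of the COPI vesicle coat, so the hairpins of miR-148b and miR-152 have related host genes, whose messenger RNA was not measured here.

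Library totals ranged from 2537167 to 5453539 counts. Levels are given as CPM, counts scaled to a common library size after TMM scaling (trimmed mean of M values, which sets the typical miRNA to no change between libraries). miR-21a-5p, the most abundant row, took 26.4% ± 7.34 of the counts in day 0 skin, 49.6% ± 7.95 in day 7 edge skin and 16.6% ± 2.85 in diabetic skin (SD, n = 3 each), which lowers or raises the share of every other miRNA in the total. The label skin was checked against 7 epidermal miRNAs, which were detected in every library, with a summed level of 57149 to 88867 CPM.

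The members differed in abundance by a factor that far exceeded their spread between libraries, and in the same order in all 9. miR-148a-3p was the dominant member, ranking between 3 and 6 among the miRNAs of each library, with 114090 to 327389 counts. miR-152-3p ranked between 21 and 38, with 7705 to 24300 counts, and miR-148b-3p between 83 and 91, with 961 to 3341 counts. By mean TPM over the 9 libraries, the table's own scale by the library total, miR-148a-3p (53753) stood at place 5, just under miR-1b-5p (62596) and just over miR-203-3p (53433), an abundant miRNA of the epidermis. The miR-1b-5p row was nearly equal to that of miR-1a-3p (62654) in every library, so these rows may not be separate. Ranks, places and library totals here count both. miR-152-3p (4460) stood between miR-379-5p (4528) and miR-30e-5p (4291), and miR-148b-3p (481) between let-7d-5p (508) and miR-192-5p (465).

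Within the family's counts, miR-148a-3p held 92.4% ± 1.59 in day 0 skin, 91.5% ± 2.53 in day 7 edge skin and 90.3% ± 2.68 in diabetic skin (SD, n = 3 each). miR-152-3p held 6.92% ± 1.49, 7.54% ± 2.37 and 8.80% ± 2.76, and miR-148b-3p held 0.718% ± 0.109, 0.953% ± 0.175 and 0.881% ± 0.0797. The libraries of the 3 groups overlapped in the makeup of the pool with this seed for each member. Adapter ligation favours some small RNAs over others, so a ratio of counts between different miRNAs is not a ratio of molecules. The sources used here do not say how reads with mismatches were assigned; miR-148b-3p counts were 0.641% to 1.28% of those of miR-148a-3p, from which they differ at 2 bases, and the part of misassigned reads was not tested.

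For replicates 1, 2 and 3, the level of miR-148a-3p was 67126, 51057 and 64227 CPM in day 0 skin, 48280, 41913 and 54913 CPM in day 7 edge skin, and 44833, 43739 and 53650 CPM in diabetic skin. Replicates 1 and 3 at day 0 were the highest of the 9 libraries, but replicate 2 at day 0 lay below replicate 3 of both other groups, so the groups overlapped. The group means were 60803 ± 8564, 48369 ± 6501 and 47408 ± 5434 CPM (SD, n = 3 each), in the order day 0, day 7, diabetic. The first gap in that order exceeded the SD of either group, although the ranges overlapped, and the second gap was smaller than both SDs. Libraries of the same replicate number deviated together over all miRNAs. Within each number miR-148a-3p was lower at day 7 than at day 0 in 3 of 3 pairs. In 3 of 3 pairs its level in diabetic skin was below that of day 0. Both counts use the same day 0 libraries, and the pairing was taken from these data. With 3 pairs, a test that flips the signs of the differences cannot give a p under 0.25. The share of all tested miRNAs with such pairs was not computed. At day 7 against day 0, miR-148b-3p was lower in 1 of 3 pairs and miR-152-3p in 2 of 3. In diabetic skin against day 0, both were lower in 2 of 3 pairs. Of the opposite arms, miR-148a-5p and miR-152-5p were lower at day 7 than at day 0 in 3 of 3 pairs. miR-148b-5p was higher there in 3 of 3. In bulk tissue, fewer cells that make a miRNA and less of it per cell cannot be told apart.

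miR-148b-3p, the scarcest member, lay at 430, 458 and 514 CPM in day 0 skin, 491, 536 and 463 CPM in day 7 edge skin, and 458, 435 and 486 CPM in diabetic skin. No group stood apart, and the lowest and highest of the 9 libraries differed 1.24-fold. The means were 467 ± 42.8, 496 ± 36.8 and 460 ± 25.5 CPM (SD, n = 3 each).

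miR-152-3p lay at 3710, 4352 and 5455 CPM in day 0 skin, 3144, 4860 and 3709 CPM in day 7 edge skin, and 3070, 3978 and 7235 CPM in diabetic skin. The diabetic group held both the lowest and the highest library, and the 3 groups overlapped. The means were 4506 ± 883, 3904 ± 875 and 4761 ± 2190 CPM (SD, n = 3 each), and the 9 libraries spanned 2.36-fold.

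**Figure D1:**
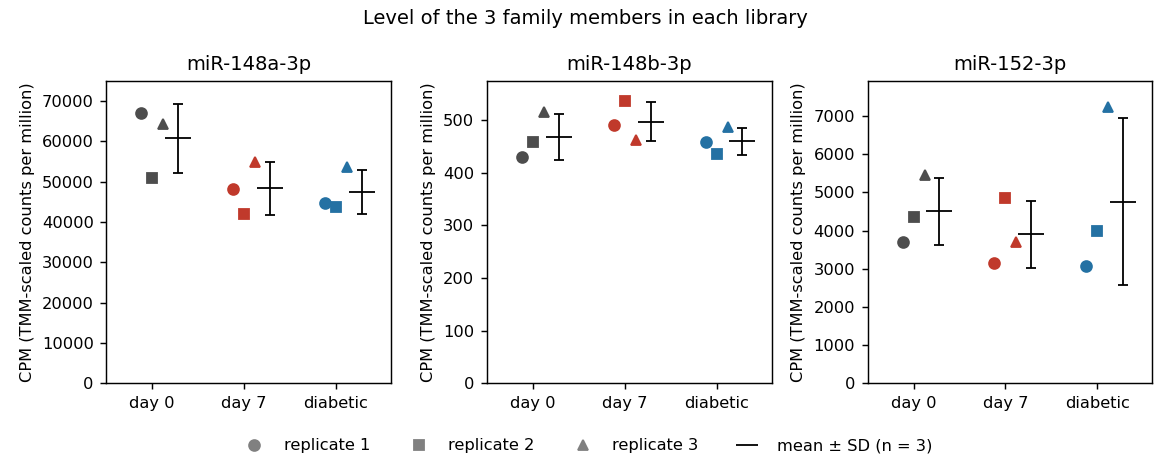
Level of each member in every library, in TMM-scaled CPM on linear axes from 0, by group; points are libraries with the replicate number as the shape, and bars are the mean ± SD (n = 3). The groups overlap for each member, miR-148b-3p stays between 430 and 536 CPM, and diabetic replicate 3 stands highest for miR-152-3p at 7235 CPM.

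Across the 309 miRNAs with a mean of at least 10 CPM, miR-148b-3p had the smallest spread over the 9 libraries, with an SD of its log2 CPM of 0.11 against a median SD of 0.37. Its opposite arm miR-148b-5p was at place 3 with an SD of 0.13, and miR-152-5p at place 9 with 0.17. miR-148a-3p (0.24) was at place 58 and miR-152-3p (0.40) at place 172, so the members did not share the evenness of miR-148b-3p. The place depends on the scaling: on log2(TPM + 1), which follows the library total, miR-148b-3p was at place 26 with an SD of 0.27 against a median of 0.48, miR-148b-5p at 17, miR-152-5p at 113, miR-148a-3p at 134 and miR-152-3p at 173.

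The comparison of day 7 with day 0 asks how the family stands at the wound edge after a week of healing. The mean levels of miR-148a-3p and miR-152-3p were lower in day 7 edge skin than in day 0 skin and that of miR-148b-3p was higher, and none of the 3 differences passed the test. The log2 fold changes were -0.33 ± 0.20 for miR-148a-3p (adjusted p = 0.320), 0.09 ± 0.14 for miR-148b-3p (adjusted p = 0.718) and -0.21 ± 0.29 for miR-152-3p (adjusted p = 0.688; ± SE, edgeR quasi-likelihood test, Benjamini-Hochberg over all 447). Thus 0 of 3 members passed, where 12.8% of all tested miRNAs did, 36 (8.05%) higher and 21 (4.7%) lower. The members' median log2 fold change was -0.21, beside 0.08 over all tested miRNAs. No member was free of overlap between the groups in CPM, which 30.4% of tested miRNAs were. In the fit with a replicate block, miR-148a-3p stood at -0.33 with an adjusted p of 0.252 (edgeR). Leaving out day 0 replicate 2 moved miR-148a-3p to -0.51, and miR-152-3p stood at -0.034 without day 0 replicate 3 and at -0.47 without day 7 replicate 2.

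The comparison of the diabetic group with day 0 skin gave log2 fold changes of -0.36 ± 0.20 for miR-148a-3p (adjusted p = 0.680), -0.02 ± 0.14 for miR-148b-3p (adjusted p = 0.967) and 0.08 ± 0.29 for miR-152-3p (adjusted p = 0.944, edgeR). None of the 3 passed, and percent called over all tested miRNAs was 0%; 40 miRNAs had an unadjusted p under 0.05 and DESeq2 called 5. The members' CPM ranges overlapped, beside 13.9% of tested miRNAs without overlap. The difference of miR-148a-3p was about as large as that at day 7, and both are measured against the same day 0 libraries. With the replicate block it was -0.36, with an adjusted p of 0.549 (edgeR).

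The diabetic group and day 7 were closest for miR-148a-3p, with a log2 fold change of -0.03 ± 0.20 (adjusted p = 0.949). miR-148b-3p differed by -0.11 ± 0.14 (adjusted p = 0.605) and miR-152-3p by 0.29 ± 0.29 (adjusted p = 0.518, edgeR). Again 0 of 3 members passed, where 19.9% of all tested miRNAs did, 35 (7.83%) higher and 54 (12.1%) lower, and the members overlapped in CPM where 38.3% of tested miRNAs did not. The value for miR-152-3p rests on diabetic replicate 3: without that library its log2 fold change was -0.12 against day 7 and -0.37 against day 0.

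On the share of all counts, which scales each library by its total, the picture was another one. miR-148a-3p took 6.81% ± 1.61 of the counts in day 0 skin, 3.71% ± 0.696 in day 7 edge skin and 5.61% ± 0.480 in diabetic skin, miR-152-3p took 0.495% ± 0.0689, 0.299% ± 0.0728 and 0.544% ± 0.167, and miR-148b-3p took 0.0517% ± 0.00418, 0.0378% ± 0.00288 and 0.0547% ± 0.00712 (SD, n = 3 each). For each member, the 3 day 7 libraries lay below all day 0 and all diabetic libraries. The summed share of the family was 7.36% ± 1.62 in day 0 skin, 4.04% ± 0.691 in day 7 edge skin and 6.21% ± 0.435 in diabetic skin.

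The exact two-sided permutation test gave p = 0.1 for each member between day 7 and either other group, the smallest value that 3 against 3 allows, and p = 0.4 to 0.8 between the diabetic group and day 0, where the members overlapped and 14.1% of tested miRNAs did not. A difference of this kind was common in the table: 43.2% of tested miRNAs lay lower at day 7 than at day 0 without overlap in TPM, and 45.9% lay higher in the diabetic group than at day 7. With miR-21a-5p left out of the total, miR-148a-3p took 9.17% ± 1.28, 7.35% ± 0.547 and 6.74% ± 0.771 of the rest, and miR-148b-3p took 0.0704% ± 0.00400, 0.0761% ± 0.0113 and 0.0658% ± 0.0108. For miR-148b-3p the order of the groups turned, with day 7 highest, and for miR-148a-3p the diabetic group became the lowest. miR-152-3p took 0.677% ± 0.109, 0.599% ± 0.157 and 0.648% ± 0.177, still lowest at day 7 but within the spread between libraries.

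**Figure D2:**
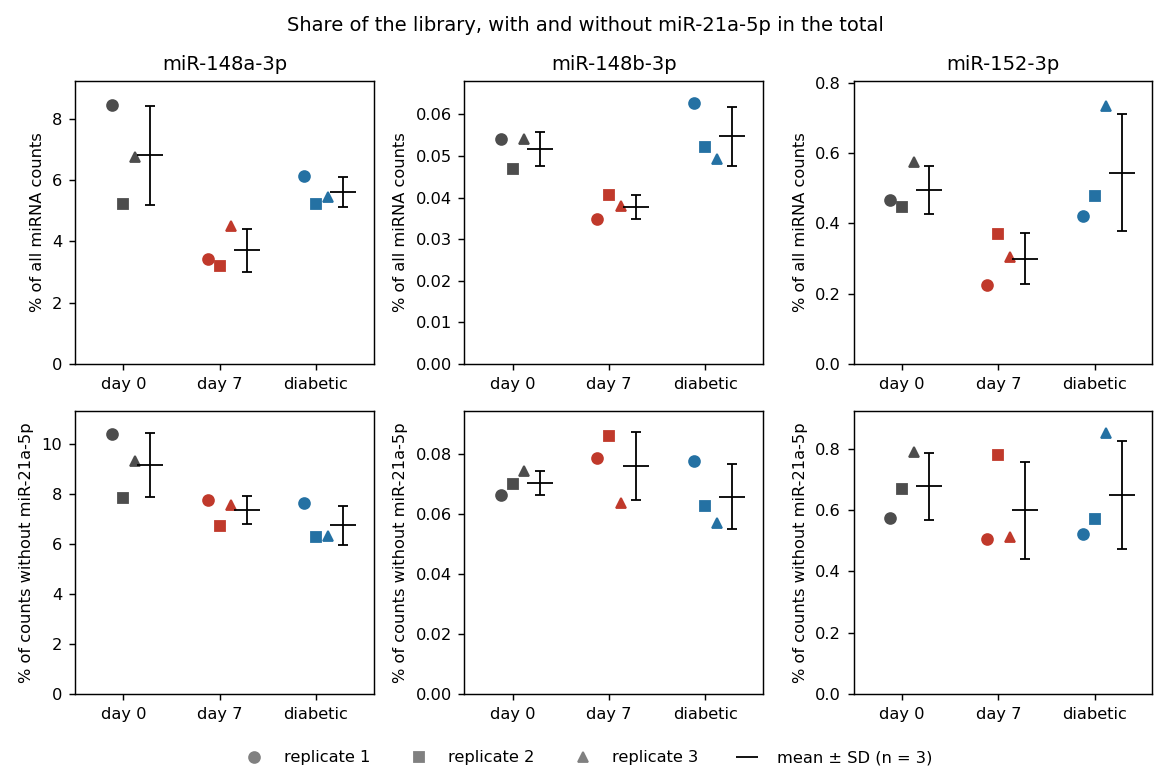
Share of each member in the library, in percent, with all counts as the total in the upper row and all counts except miR-21a-5p in the lower row; points are libraries and bars the mean ± SD (n = 3), on linear axes from 0. With all counts, day 7 lies below both other groups for each member (3.71% against 6.81% and 5.61% for miR-148a-3p). Without miR-21a-5p, the day 7 mean is highest for miR-148b-3p and above the diabetic mean for miR-148a-3p. For miR-152-3p the day 7 mean is still lowest, but within the spread between libraries.

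The fits showed the same dependence, as total-count scaling is the scaling of these shares. With total counts in place of TMM scaling, the median over all tested miRNAs at day 7 against day 0 was a log2 fold change of -0.46, and calls went from 36 higher and 21 lower to 16 higher and 117 lower. Under this scaling 2 of 3 members passed as lower, where 26.2% of tested miRNAs did, namely miR-148a-3p at -0.88 (adjusted p = 0.0277) and miR-152-3p at -0.73 (adjusted p = 0.0449). miR-148b-3p turned to -0.45 (adjusted p = 0.0692, edgeR). Between the diabetic group and day 7 the median of all tested miRNAs was 0.61 under total counts, with 174 higher and 24 lower in place of 35 and 54. There 2 of 3 members passed as higher, where 38.9% did: miR-148b-3p at 0.53 (adjusted p = 0.0288) and miR-152-3p at 0.86 (adjusted p = 0.0161), while miR-148a-3p stood at 0.60 (adjusted p = 0.0691, edgeR). Against day 0, 0 of 3 members passed in the diabetic group under total counts, where 0.224% of tested miRNAs did.

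A change of scaling moves all miRNAs of a comparison by about the same amount, so the members' place relative to the median of all tested miRNAs is given once, with TMM scaling and on the log2 scale. At day 7 against day 0, miR-148a-3p stood at -0.42, miR-148b-3p at 0.0018 and miR-152-3p at -0.29 from that median. In the diabetic group, miR-148a-3p stood at -0.40 against day 0 and at -0.0047 against day 7.

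**Figure D3:**
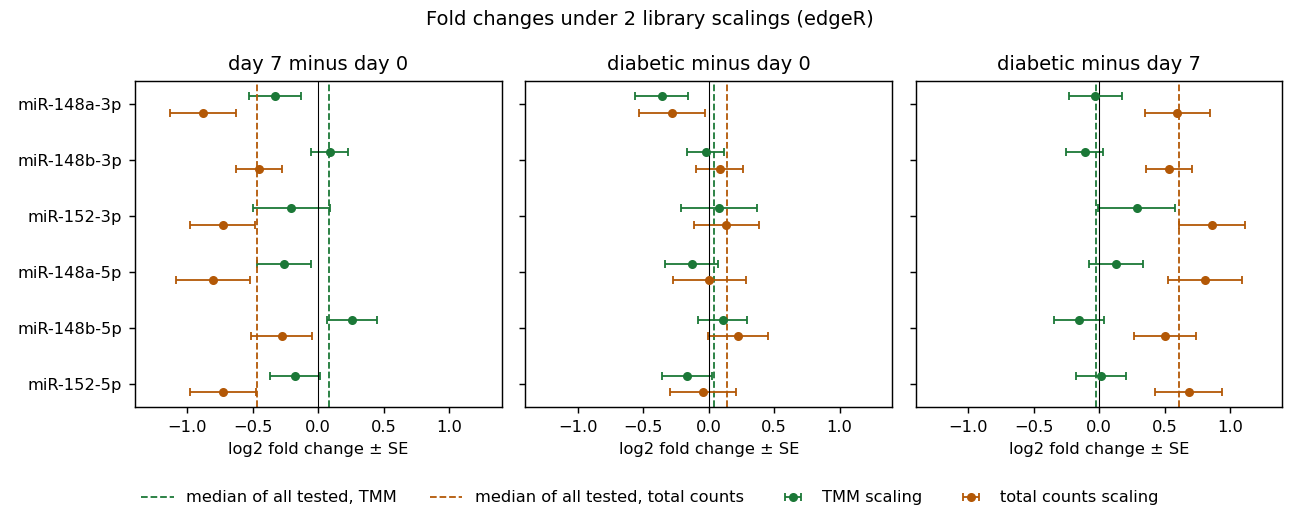
Log2 fold change ± SE (edgeR) of the members and their opposite arms in the 3 comparisons, with TMM scaling in green and total-count scaling in orange; dashed lines are the median of all 447 tested miRNAs under each scaling. With total counts the median is -0.46 at day 7 against day 0 and 0.61 in the diabetic group against day 7, and the sign of miR-148b-3p flips between the scalings in all 3 comparisons.

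Ratios between members within a library are free of scaling. There were 112 to 156 counts of miR-148a-3p per count of miR-148b-3p at day 0, with 156, 112 and 125 in replicates 1, 2 and 3. The ratio was 98.4, 78.3 and 119 in day 7 edge skin, and 98.0, 100.5 and 110 in diabetic skin. The diabetic libraries all lay below the day 0 libraries, by 0.33 on the log2 scale, and the day 7 libraries overlapped with those of day 0, at a mean difference of -0.42. Without day 0 replicate 1 the first difference was -0.20, and without day 7 replicate 2 the second was -0.26. The exact two-sided permutation test gave p = 0.1 for the first, the smallest it can give, and p = 0.2 for the second, with an adjusted p of 0.6 for both over the 9 tests of member ratios.

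miR-148a-3p exceeded miR-152-3p 18.1, 11.7 and 11.8 times in day 0 skin, 15.4, 8.62 and 14.8 times in day 7 edge skin, and 14.6, 11 and 7.42 times in diabetic skin. miR-152-3p exceeded miR-148b-3p 8.62, 9.51 and 10.6 times in day 0 skin, 6.41, 9.08 and 8.02 times in day 7 edge skin, and 6.71, 9.14 and 14.9 times in diabetic skin. For these ratios the exact permutation p ranged from 0.2 to 1. Diabetic replicate 3 held the lowest ratio of miR-148a-3p to miR-152-3p and the highest of miR-152-3p to miR-148b-3p, and its miR-152-3p level was the highest of the 9 libraries.

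**Figure D4:**
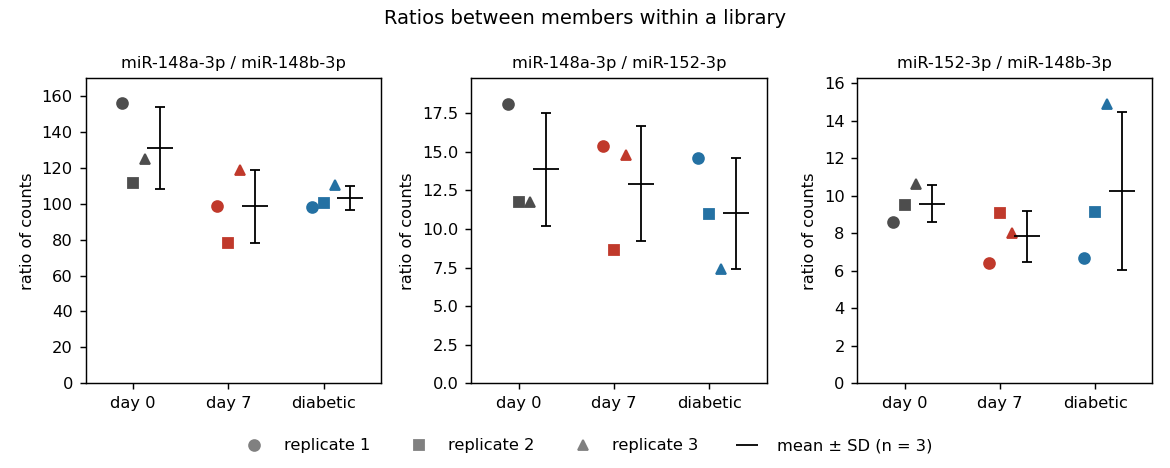
Ratio of counts between members within each library, on linear axes from 0, by group; points are libraries and bars the mean ± SD (n = 3). miR-148a-3p per miR-148b-3p lies at 112 to 156 at day 0 and 98.0 to 110 in the diabetic group, and the other ratios overlap between groups.

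Each hairpin gave mostly its 3p arm, to a different degree. The 5p arm of miR-148a, at 112 to 185 CPM, amounted to 0.248%, 0.298% and 0.268% of its 3p counts in day 0 skin, 0.289%, 0.296% and 0.266% in day 7 edge skin, and 0.413%, 0.345% and 0.208% in diabetic skin. The 5p arm of miR-152, at 72.7 to 103 CPM, amounted to 2.78%, 2.36% and 1.61%, then 2.89%, 1.86% and 2.12%, then 3.09%, 2.38% and 1.01%. The 5p arm of miR-148b, at 21.3 to 27.4 CPM, amounted to 5.05%, 5.32% and 4.15%, then 5.59%, 4.93% and 5.83%, then 5.51%, 5.50% and 4.82%. The 3 hairpins did not overlap in any of the 9 libraries, and the most abundant member had the smallest share of 5p counts. Between groups the shares overlapped for each hairpin, with an exact permutation p of 0.3 to 0.9 and an adjusted p of 0.9 for each of the 9 tests.

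None of the 3 opposite arms passed the edgeR test in any comparison. Their log2 fold changes at day 7 against day 0 were -0.26 ± 0.20 for miR-148a-5p, 0.26 ± 0.19 for miR-148b-5p and -0.18 ± 0.19 for miR-152-5p (adjusted p = 0.440, 0.416 and 0.573). In CPM, miR-148a-5p lay lower and miR-148b-5p higher at day 7 than at day 0 without overlap, as 12.1% and 18.3% of tested miRNAs did in the same direction. Diabetic skin also lay below day 7 edge skin for miR-148b-5p, as it did for 20.8% of tested miRNAs. With total counts, miR-148b-5p turned to -0.28 and miR-148a-5p and miR-152-5p passed as lower, at -0.80 (adjusted p = 0.0493) and -0.73 (adjusted p = 0.0490), as did 26.2% of tested miRNAs. In the diabetic group against day 7 the same scaling made these arms pass as higher, at 0.81 (adjusted p = 0.0359) and 0.68 (adjusted p = 0.0459, edgeR), as did 38.9% of tested miRNAs.

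**Figure D5:**
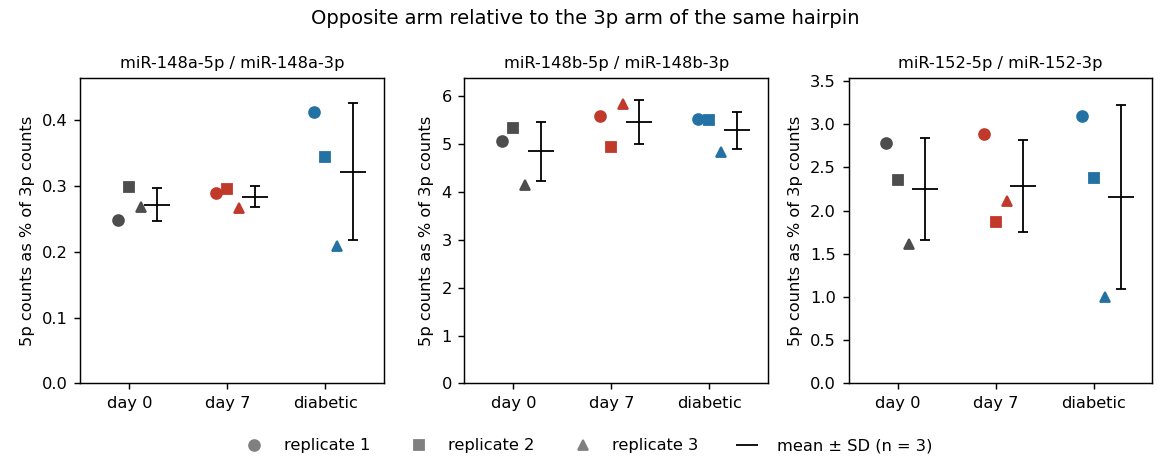
Counts of the 5p arm as a percentage of the 3p arm of the same hairpin, on linear axes from 0, by group; points are libraries and bars the mean ± SD (n = 3). The share is 0.208% to 0.413% for miR-148a, 4.15% to 5.83% for miR-148b and 1.01% to 3.09% for miR-152, and diabetic replicate 3 is lowest for miR-148a and miR-152.

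In diabetic replicate 3, the arm ratios of miR-152 and miR-148a were lower than in the other diabetic libraries by more than that of miR-148b. On the log2 scale, its minor-to-major ratio minus the mean of diabetic replicates 1 and 2 was -1.43 for miR-152, -0.86 for miR-148a and -0.18 for miR-148b. Among 127 hairpins with both arms tested, a description chosen after the values were seen, these were at places 5, 13 and 53 from the lowest, with a median over all 127 of 0.0045. In this library the scaled level of miR-152-3p was high and that of miR-152-5p low, at 7235 and 72.7 CPM, the highest and lowest of the 9 libraries.

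The miRNAs whose pattern over the 9 libraries was most like that of a member were mostly not of the family, by the root mean square difference of centred log2 CPM over 308 miRNAs. For miR-148a-3p they were miR-100-5p (0.12), miR-3074-2-3p (0.15), miR-24-2-5p (0.16) and let-7d-3p (0.16), against a median of 0.40. Mir3074-2 and Mir24-2 overlap in the RefSeq annotation and the use of strand in counting is not given. The rows of miR-3074-2-3p and miR-24-2-5p were nearly equal in every library, with 478 and 484 CPM in day 0 replicate 1. They may therefore not be separate and may be 1 signal. For miR-148b-3p they were miR-186-5p (0.09), miR-1839-5p (0.13), miR-214-5p (0.13) and its own opposite arm miR-148b-5p (0.14), against a median of 0.36. For miR-152-3p they were miR-30f (0.21), miR-16-5p (0.23), miR-143-5p (0.25) and miR-3068-5p (0.25), against a median of 0.50. The members were less like each other: miR-148b-3p was at place 33 and miR-152-3p at place 140 in likeness to miR-148a-3p, with 0.26 and 0.39.

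The miR-130/miR-301 family carries the core of the same seed shifted by 1 base, so its sequences are shown for comparison, with bases 2 to 8 in capitals.
miR-130a-3p: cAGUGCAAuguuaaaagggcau
miR-301a-3p: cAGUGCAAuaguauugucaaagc
Of 6 miRNAs listed for this family, 4 were in the table and 2 were tested, at far lower levels than the miR-148/miR-152 members. miR-130a-3p lay at 25.2, 26.1 and 26.7 CPM in day 0 skin, 14.4, 11.7 and 15.4 CPM in day 7 edge skin, and 26.0, 29.1 and 44.8 CPM in diabetic skin, so that day 7 lay below both others. It fell at day 7 against day 0, with a log2 fold change of -0.91 ± 0.26 (adjusted p = 0.0406), and was higher in the diabetic group than at day 7, by 1.26 ± 0.26 (adjusted p = 0.00555, edgeR). The first call was lost on leaving out any of 5 single libraries, namely replicates 2 and 3 of day 0, 1 and 2 of day 7, and 2 of the diabetic group, at adjusted p = 0.0510 to 0.126. Over the 2 tested miRNAs, 0 rose and 1 fell at day 7, 0 passed in the diabetic group against day 0, and 1 was higher and 0 lower in the diabetic group against day 7. Among all tested miRNAs, 4.7% were called lower at day 7 than at day 0. In the diabetic group, 0% passed against day 0 and 7.83% were called higher against day 7. In CPM, 12.1% lay lower at day 7 than at day 0 without overlap. Between the diabetic group and day 7, 38.3% were free of overlap in either direction.

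Other miRNAs known to target DNA methyltransferases, a list of 8 led by miR-143-3p (79848 CPM, mean of 9 libraries) and miR-101a-3p (9082 CPM), had 1 higher and 0 lower at day 7 against day 0 and 0 passing in both comparisons of the diabetic group, where 12.8%, 0% and 19.9% of all tested miRNAs passed. The count at day 7 is near that background. Their median log2 fold changes were 0.14, 0.04 and -0.07, beside 0.08, 0.04 and -0.02 over all tested miRNAs. Of 7 miRNAs known in cholesterol and lipoprotein regulation, 5 were tested, led by miR-27b-3p (22809 CPM) and miR-223-3p (179 CPM). Here 2 were higher and 0 lower at day 7 against day 0, 0 passed in the diabetic group against day 0, and 0 rose and 3 fell in diabetic skin against day 7. Over all tested miRNAs, 8.05% were higher at day 7, 0% passed in the diabetic group against day 0 and 12.1% were lower against day 7. This list shares the blood cell miRNAs miR-223-3p and miR-144-3p with the marker lists below. Its medians were 0.28, 0.01 and -0.74.

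Markers of several cell types were called between the same groups, beside 8.05% higher and 4.7% lower among all tested miRNAs at day 7 against day 0, and 7.83% higher and 12.1% lower in the diabetic group against day 7. The summed level of 7 epidermal miRNAs, led by miR-203-3p (51014 CPM) and miR-205-5p (6631 CPM), was 67984 to 81563 CPM in day 0 skin, 57149 to 61562 in day 7 edge skin and 62160 to 88867 in diabetic skin, with 3 of 7 lower at day 7 than at day 0 and 3 of 7 higher in the diabetic group than at day 7. The 6 leukocyte miRNAs, led by miR-146a-5p (1122 CPM) and miR-142a-5p (639 CPM), summed to 1681 to 2103, 2962 to 3332 and 1677 to 2404 CPM, with 4 of 6 higher at day 7 than at day 0 and 4 of 6 lower in diabetic skin than there. The 3 erythroid miRNAs, led by miR-451a (931 CPM) and miR-486a-5p (320 CPM), summed to 684 to 1328, 1608 to 2822 and 701 to 1039 CPM, with 2 of 3 higher at day 7 and 2 of 3 lower in diabetic skin than there. In the diabetic group against day 0 none of these 3 lists had a member that passed.

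For endothelium, striated muscle and fibroblasts with mural cells, 0 of 2, 0 of 3 and 0 of 4 markers passed in any of the 3 comparisons. Endothelial markers, led by miR-126a-3p (7143 CPM) and miR-126a-5p (623 CPM), summed to 6518 to 8068, 7818 to 9518 and 5425 to 9962 CPM. Muscle markers, led by miR-1a-3p (63192 CPM) and miR-206-3p (3151 CPM), summed to 44130 to 62362, 50272 to 100452 and 30144 to 132073 CPM. Fibroblast and mural markers, led by miR-143-3p and miR-199a-3p (8576 CPM), summed to 80927 to 117841, 60358 to 85952 and 75500 to 127690 CPM. The hepatocyte miRNA miR-122-5p, at 2.87 to 171 CPM over the 9 libraries, did not pass in any comparison. Its level followed the replicate number rather than the group. In day 0, day 7 and diabetic skin it lay at 72.6, 90.2 and 55.1 CPM in replicate 1. Replicate 2 held 2.87, 3.01 and 3.13 CPM, and replicate 3 held 133, 171 and 145 CPM. The cause of this was not tested. No marker was at 0 in any library, and the part of these cell types in the members' levels was not tested.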

How the data were processed

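Per the file headers, the deposited table pairs raw counts (whole numbers, not normalized) with TPM for every miRNA and library. The TPM that the authors deposited is the count scaled by the library total (CPM before TMM), without correction for length. Bowtie, DESeq 3.0.3 and mm9 are named in the submitters' processing notes; the sources used here give no setting for read trimming, mismatches, multiple matches or strand. Sequences and positions are from RefSeq (GRCm38.p6), found by name for 6 of 6 members and arms. Host genes are from GENCODE, found by overlap of their position with that of each hairpin. Columns with a T in their name were taken as the diabetic libraries, whose titles carry that letter, by replicate number.

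Counts were tested with edgeR 4.0.16 in R 4.3.3 (quasi-likelihood F test, TMM, 1 fit over 9 libraries). filterByExpr with a minimum count of 10 and total of 15 left out 0.0217% of counts. Calls are at a Benjamini-Hochberg adjusted p under 0.05; SEs come from the F statistic. Totals of 2537167 to 5453539 give each member's share a 95% Wilson interval of at most ±6.32% of its value, for counting error only. Alternatives were other scalings and filters, DESeq2 1.42.0, limma 3.58.1 on log2(TPM + 1 or 0.1), a replicate block and each library left out. Without spike-ins, changes are relative. The fit was tested on simulated counts.

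Replicates differed beyond counting noise (chi-square over degrees of freedom 155 to 1291). Deviations of same-numbered libraries correlated at 0.102 to 0.484 in 9 of 9 pairs, and the same number was the best match in 8 of 9. Diabetic replicate 1 was closer to day 0 replicate 3 (0.126) than to day 0 replicate 1 (0.102). The numbers were taken as pairs on this ground for the replicate block and the counts of pairs, and no label says so. The main edgeR fit and the exact permutation tests between groups treated the libraries as unpaired. Members and lists were chosen with earlier results of these data known. The miRNAs named are the members, their opposite arms, the 4 miRNAs most like each member with a mean of at least 10 CPM, their neighbours in abundance, offset-seed miRNAs of at least 10 CPM and the 2 most abundant of every other list.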

Additional observations from a re-analysis of the deposited data

How the results depend on the processing

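Of the 9 member comparisons, none passed under TMM scaling with any library left out, another filter or the replicate block. None passed with DESeq2, which uses its own size factors, with those size factors in edgeR, with upper-quartile scaling or with totals without miR-21a-5p. The block left each member's and each opposite arm's call as it was. With the block, log2 fold changes at day 7 against day 0 were -0.33 for miR-148a-3p, 0.09 for miR-148b-3p and -0.19 for miR-152-3p. It gave 74, 1 and 93 calls in the 3 comparisons. Calls came with total counts or TPM alone. Counting error was at most 6.32% of a member's share, so depth limits these values less than the 3 libraries a group do.

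With total counts, limma at pseudocount 1 and limma at 0.1, in that order, log2 fold changes at day 7 against day 0 were -0.88, -0.87 and -0.87 for miR-148a-3p, -0.73, -0.75 and -0.75 for miR-152-3p, -0.45, -0.45 and -0.45 for miR-148b-3p, and -0.28, -0.26 and -0.27 for miR-148b-5p. For diabetic skin against day 7 the values were 0.60, 0.61 and 0.61 for miR-148a-3p, 0.86, 0.85 and 0.85 for miR-152-3p, 0.53, 0.53 and 0.53 for miR-148b-3p, and 0.50, 0.46 and 0.48 for miR-148b-5p. Against day 0, miR-148b-3p in the diabetic group stood at 0.082, 0.077 and 0.077, and miR-148a-5p at 0.0051 with total counts. Calls over all miRNAs were 133, 139 and 134 at day 7 against day 0, 1, 1 and 1 in the diabetic group against day 0, and 198, 194 and 194 against day 7.

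Small differences changed sign elsewhere. For miR-148a-3p in the diabetic group against day 7 the value was 0.0056 with DESeq2's size factors and with DESeq2, 0.076 with upper-quartile scaling and 0.072 with no filter. For miR-148b-3p at day 7 against day 0 it was -0.11 with upper-quartile scaling and -0.026 with no filter. For miR-152-3p in the diabetic group against day 0 it was -0.011 with upper-quartile scaling and -0.063 with totals without miR-21a-5p. For miR-152-5p against day 7 it was -0.059 with those totals and -0.068 with a minimum mean of 10 CPM. Calls at day 7 against day 0 were 37 with totals without miR-21a-5p. In the diabetic group against day 0 they were 1 with upper-quartile scaling, 1 with the minimum of 10 CPM, 10 with no filter and 5 with DESeq2. With miR-21a-5p out of the total, the share in the diabetic group minus day 7 was -0.608 percentage points for miR-148a-3p, -0.0103 for miR-148b-3p and -0.569 for the family; minus day 0 it was -0.00454 for miR-148b-3p and -0.0289 for miR-152-3p; and day 7 minus day 0 was 0.00577 for miR-148b-3p. The cause of these shifts was not tested.

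With 1 library left out, log2 fold changes ranged from -0.51 to -0.28 and -0.47 to -0.034 (miR-148a-3p and miR-152-3p, day 7 against day 0), -0.088 to 0.11 (miR-148a-3p, diabetic against day 7), -0.047 to 0.17, -0.084 to 0.046 and -0.13 to 0.0083 (miR-148b-3p, day 7 against day 0, diabetic against day 0 and against day 7), -0.37 to 0.32 and -0.12 to 0.53 (miR-152-3p, diabetic against day 0 and day 7), -0.32 to 0.026 and -0.047 to 0.34 (miR-148a-5p, likewise) and -0.038 to 0.17 (miR-152-5p, diabetic against day 7). Calls ranged from 19 to 68 at day 7 against day 0, with 27, 22, 19 and 23 without day 0 replicates 2 and 3 and day 7 replicates 1 and 2. They ranged from 0 to 2 in the diabetic group against day 0 and from 49 to 101 against day 7, with 49, 59 and 52 without day 7 replicates 1 and 2 and diabetic replicate 2. Shares in the diabetic group minus day 0 ranged from -0.00100 to 0.00574 percentage points for miR-148b-3p and from -0.0468 to 0.109 for miR-152-3p. Log2 ratios ranged from -0.56 to -0.26, -0.44 to -0.20 and -0.072 to 0.23 (miR-148a-3p to miR-148b-3p, day 7 against day 0, diabetic against day 0 and against day 7), -0.26 to 0.15 and -0.51 to 0.018 (miR-148a-3p to miR-152-3p, day 7 against day 0 and diabetic against day 7) and -0.29 to 0.29 (miR-152-3p to miR-148b-3p, diabetic against day 0). Those of 5p to 3p ranged from -0.015 to 0.48 and -0.083 to 0.41 for miR-148a in the diabetic group against day 0 and day 7, from -0.12 to 0.013 for miR-148b against day 7, and for miR-152 from -0.19 to 0.21 at day 7 against day 0, -0.51 to 0.30 in the diabetic group against day 0 and -0.54 to 0.27 against day 7.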
